A study of Mus musculus with 24 samples.

Results

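The genes of the cytosolic ribosomal proteins are those whose platform symbol begins with Rpl, Rps or Rplp and a number, together with Rpsa. The S6 kinases of the Rps6k family, Rps19bp1 and pseudogenes were left out, and only probe sets carrying a single gene symbol were used. This gave 49 genes of the 18193 on the array, and each was read from its probe set of highest mean. By symbol alone, paralogs such as Rpl7l1 included, 26 were assigned to the large subunit and 23 to the small. Of these 49, 45 passed a filter on dim probe sets (24 large, 21 small), which asked for a log2 value of at least 5 on at least 6 arrays. All cells were MMH-D3, an immortalized line of mouse hepatocytes carried as a single line, differentiated for 14 days in 2% DMSO and then given a serum shock, a pulse of serum that sets the circadian clocks of cultured cells to a common phase. There was 1 array per time point, every 2 h between 12 and 58 h, 24 arrays in all, with no replicate and no unshocked control. Comparisons therefore set later against earlier hours, and the labels do not say that the time points came from separate cultures. Values are log2 GCRMA values, a background-corrected and normalized measure of array brightness, and a change of 1 is a doubling.

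Each ribosome joins a small subunit, which reads the mRNA, to a large subunit, which forms the peptide bonds. Their proteins are made in nearly equal numbers, and their mRNAs are among the most abundant of a growing cell. Most of these mRNAs begin with a 5′ terminal oligopyrimidine run, the TOP motif, through which mTOR signalling and the binding protein Larp1 control their translation. In mouse liver the translation of these mRNAs and the making of ribosomes are known to follow the day.

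Markers of the hepatocyte label were bright, with means of 15.97 for Alb and 11.93 for Hnf4a, and so were the bile duct keratins Krt19 and Krt7 at 15.44 and 12.53. No fibroblast or endothelial marker of the lists passed the filter, nor did Ptprc or Adgre1 of the macrophage markers, while Cd68 averaged 6.15. The arrays at 40 and 42 h stood apart for the ribosomal protein genes. The highest of the 24 values fell at 40 h for 10 of the 45 genes and at 42 h for 11, while at 42 h another 6 genes had their lowest. The array at 40 h also stood apart over all kept probe sets, with a median of 8.96 where the others ran from 9.04 to 9.14. Its share of values at the lowest value of the table, 39.4%, was the smallest of the 24 (41.0% at 42 h). Counts of called genes and named values that moved without both arrays are given with and without them.

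Ribosomal protein mRNAs drifted upward by a small amount, and the drift was shared by both subunits. Over the 46 h, 24 of the 45 genes rose and 0 fell (limma, Benjamini-Hochberg adjusted p under 0.05), where 26.3% of the 9825 genes measured rose and 16.4% fell. The rise was called for 11 of 24 large subunit genes and for 13 of 21 small subunit genes. The fitted linear change was positive for 41 of the 45 genes, and for 5738 of the 9825 genes measured. Its median was 0.19 (13.7% higher), against a median of 0.07 over all genes. Among the 564 genes whose probe set averaged at least 13, where 36 of the 45 lie, 25.2% rose and the median was -0.01. The median was 0.18 for the large subunit and 0.19 for the small, and this difference was not tested. With each array centred on the median of its kept probe sets, 15 genes rose, all of them among the 24. Without the arrays at 40 and 42 h, 28 rose, including all 24. For neither setting was the share of all genes counted, and the 26.3% above belongs to uncentred values on all 24 arrays.

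Markers of cell type moved over the same hours. Of the 6 hepatocyte markers, Alb, Ttr and Apoa1 fell, with linear changes of -0.34 ± 0.13, -1.34 ± 0.21 and -2.54 ± 0.42, while Rbp4 and Afp rose by 0.54 ± 0.11 and 0.33 ± 0.11. Hnf4a, at -0.24 ± 0.10, did not pass the test (adjusted p = 0.0557). Of the other cell types, Krt7 and Krt19 had changes of 0.27 ± 0.16 and -0.19 ± 0.08 (adjusted p = 0.180 and 0.0533), and Cd68 had 1.34 ± 0.55 (adjusted p = 0.0524). The part of these shifts in the drift was not tested.

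**Figure D1:**
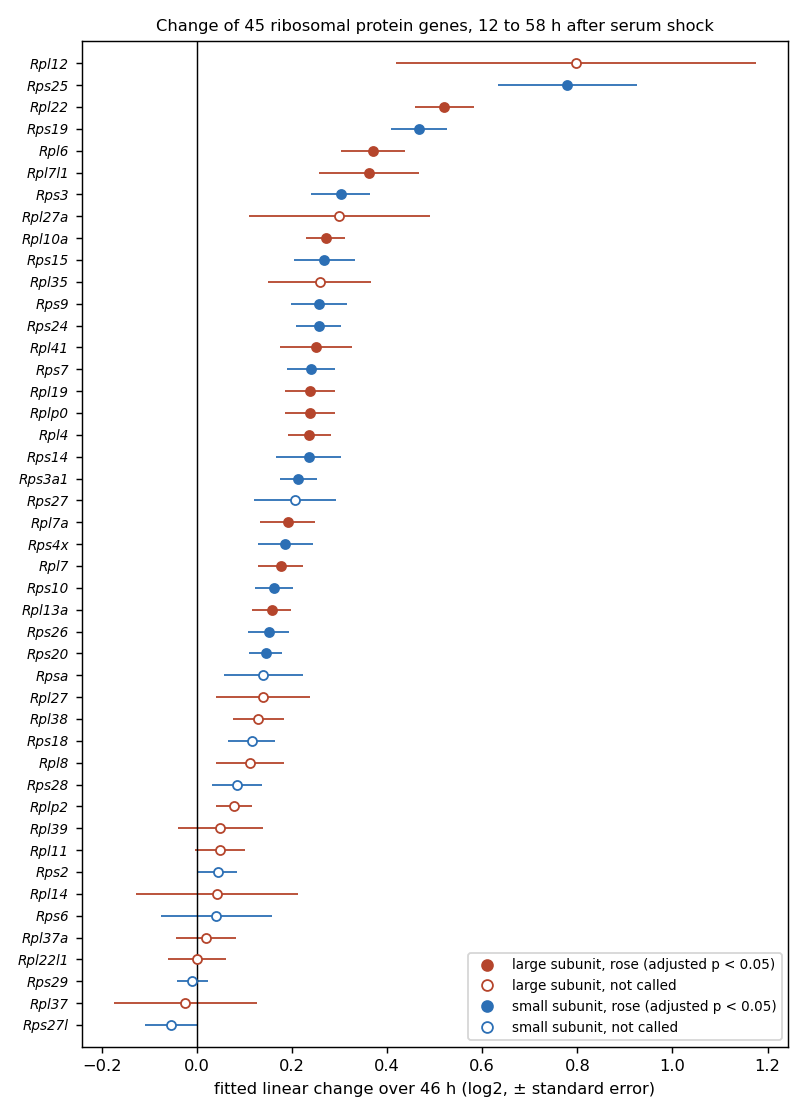
Fitted linear change over 46 h on the log2 scale (points, with standard errors as bars) for each of the 45 ribosomal protein genes, sorted by size, with large subunit genes in red and small subunit genes in blue. Filled points are the 24 genes with an adjusted p under 0.05; only 4 points lie below 0 and both colours run the whole length of the order.

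The genes were steadier than most. The SD over the 24 arrays had a median of 0.09, against 0.19 over all genes and 0.14 over genes averaging at least 13. The distance between a gene's lowest and highest array had a median of 0.39, and it was under 1 for 41 genes and under 0.5 for 31. Brightness moved with this: the 9 genes averaging below 13 had a median SD of 0.22, and 2 of them rose, against 22 of the 36 brighter ones. Its part in the steadiness was not tested. The plot of cumulative shares sets these distributions beside those of all genes.

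**Figure D2:**
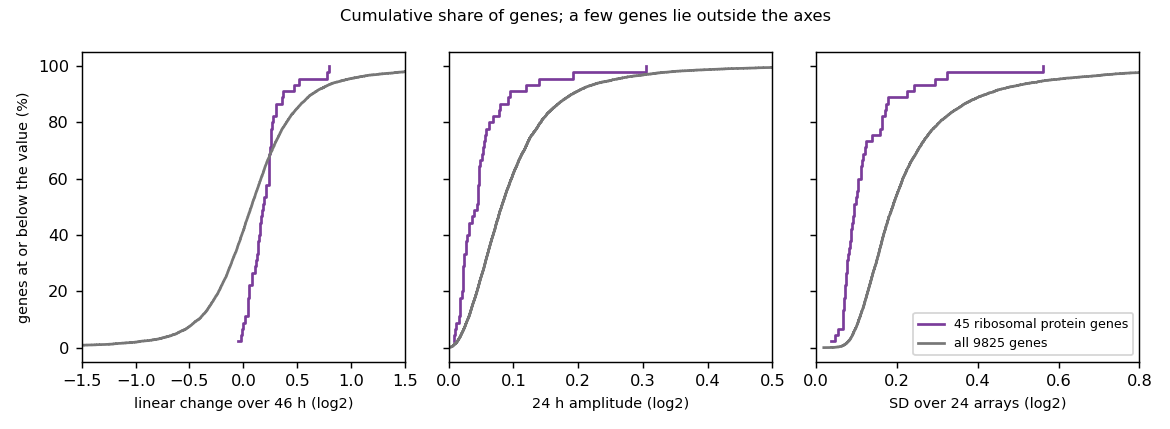
Cumulative share of genes (vertical axis, percent) at or below a given linear change over 46 h, 24 h amplitude or SD over the 24 arrays (horizontal axes, log2), for the 45 ribosomal protein genes (purple) and all 9825 genes (grey). The purple curves are steep, with medians of 0.19, 0.04 and 0.09, against 0.07, 0.08 and 0.19 for all genes.

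The rise came late. The median gene lay below its own mean by 0.10 at 18 h, by 0.10 at 22 h and by 0.11 at 30 h, when 1 of the 45 genes was above its own mean. It lay above by 0.10 at 40 h and by 0.10 at 50 h, and at 56 h 42 genes were above their own means. From 40 h on, both subunits' medians stayed above 0 on every array, and at 44 h they were within 0.01 of it. The large subunit's median minus the small subunit's lay between -0.06 at 42 h and 0.06 at 40 h. Over all genes the median was at -0.06 at 40 h, when the ribosomal protein genes were at their highest median.

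**Figure D3:**
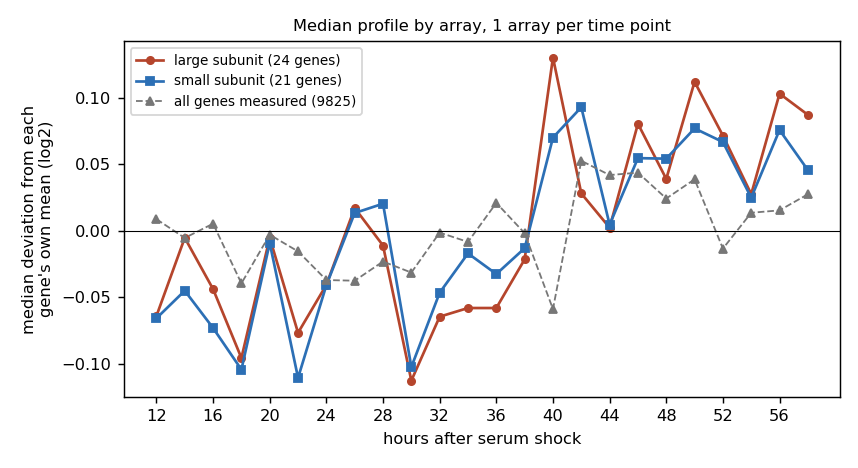
Median deviation from each gene's own 24-array mean (log2, vertical axis) against hours after serum shock, for large subunit genes (red circles), small subunit genes (blue squares) and all genes measured (grey triangles, dashed). The large subunit line is lowest at 30 h (-0.11) and the small subunit line at 22 h (-0.11), and both jump at 40 h and remain above 0, while the line of all genes is at -0.06 at 40 h.

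Each hour of the second day was also set against the same hour of the first, which gives 12 pairs of arrays 24 h apart. For 11 genes the later array was higher in 12 of 12 pairs, and for 23 genes in at least 10. At the other end, 9 genes were higher in 6 pairs or fewer. The mean of 36 to 58 h exceeded the mean of 12 to 34 h for 41 of the 45 genes, by a median of 0.09, against a median of 0.04 over all genes. Shares of all genes were not counted for the pairs or for the higher later mean.

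The largest called rise was that of Rps25, a small subunit protein needed for initiation at some internal entry sites. Its mean in consecutive blocks of 8 h was 8.16, 7.86, 7.98, 8.26, 8.51 and 8.57. The lowest array was 7.63 at 22 h, the median 8.26 and the highest 8.77 at 46 h. Values thus dipped before they climbed, and the fitted change was 0.78 ± 0.15 (standard error; adjusted p = 0.000197, limma). This gene had a single probe set, a dim one with a mean of 8.22. With the arrays from 44 h on left out, the slope, scaled up to 46 h, was 0.16 and was not called (adjusted p = 0.545, limma).

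Rpl22, an RNA-binding protein of the large subunit, rose more evenly. Its block means were 14.25, 14.32, 14.38, 14.57, 14.62 and 14.62, with a lowest array of 14.18 at 22 h, a median of 14.43 and a highest of 14.74 at 42 h. The change was 0.52 ± 0.06 (1.43-fold; adjusted p = 9.81e-07), and the later array was higher in 12 of 12 pairs.

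Rps19, whose human counterpart is mutated in Diamond-Blackfan anaemia, began its climb earlier. Its block means were 14.29, 14.47, 14.51, 14.63, 14.69 and 14.71, and it ran between 14.20 at 18 h and 14.82 at 50 h around a median of 14.57. It rose by 0.47 ± 0.06 (1.38-fold; adjusted p = 1.84e-06), again with 12 of 12 pairs higher.

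Rpl6, of the large subunit, had block means of 14.12, 14.15, 14.18, 14.35, 14.35 and 14.32. Its lowest array was 14.03 at 22 h, its median 14.22 and its highest 14.58 at 42 h. The change was 0.37 ± 0.07 (adjusted p = 0.000135), with the arrays at 40 and 42 h highest of the 24 and the later array higher in 12 of 12 pairs. The other 20 genes called rose by 0.14 to 0.36 (1.11-fold to 1.29-fold), with adjusted p between 1.78e-05 and 0.0130.

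**Figure D4:**
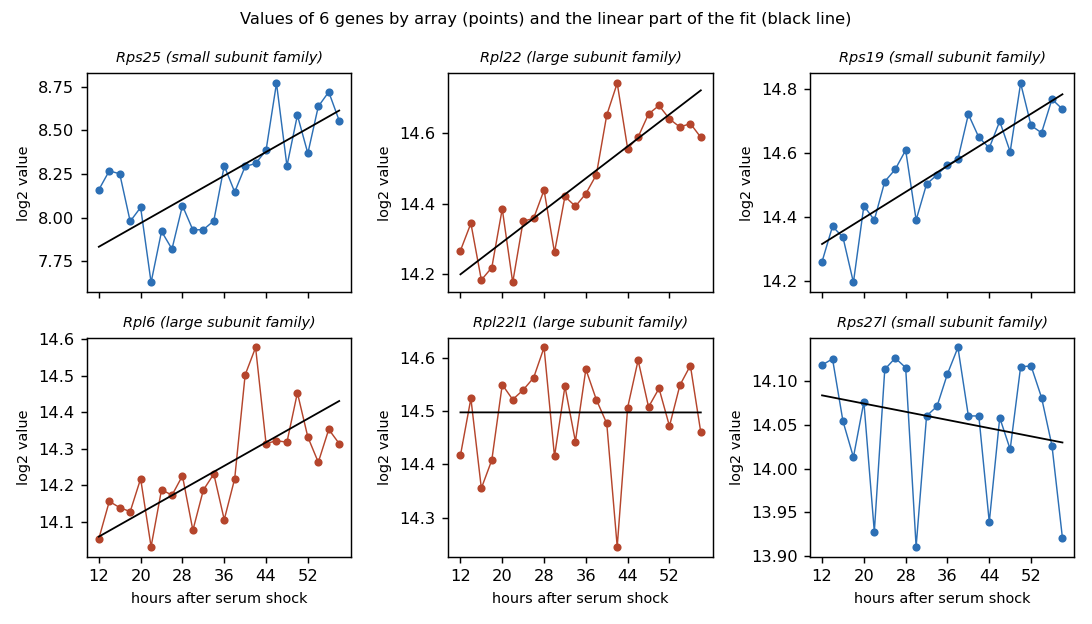
Log2 value on each of the 24 arrays (points joined by lines) against hours after serum shock for 6 ribosomal protein genes, each with its own vertical scale, and the linear part of the fit (black line). Rps25, Rpl22, Rps19 and Rpl6 are the 4 of largest called rise, with changes of 0.78, 0.52, 0.47 and 0.37, while Rpl22l1 and Rps27l have fitted changes of 0.00 and -0.05.

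Of the 21 genes not called, 13 were of the large subunit and 8 of the small, and 17 had a positive fitted change. The largest of all fitted changes was among them, on a dim probe set with a mean of 6.80. Rpl12, which helps form the base of the stalk, had block means of 7.11, 6.44, 6.16, 6.39, 7.25 and 7.42, a fall followed by a rise that a straight line could not follow. Its linear change was 0.80 ± 0.38 (adjusted p = 0.0941). With the arrays from 44 h on left out, the slope, scaled up to 46 h beyond the hours that remain, was -1.40 (adjusted p = 0.00515). With those from 12 to 18 h left out it was 1.89 on the same scale (adjusted p = 8.82e-05).

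At the other end, 4 genes had a fitted change below 0 that did not pass the test. These were Rps27l at -0.05 ± 0.06, Rpl37 at -0.02 ± 0.15, Rps29 at -0.01 ± 0.03 and Rpl22l1 at 0.00 ± 0.06. The probe set of Rps29 was the brightest of the 45, with a mean of 16.51, a lowest array of 16.44 and a highest of 16.57.

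The acidic stalk of the large subunit, which calls in the elongation factors, is built on Rplp0. This gene had a lowest array of 15.51 at 18 h, a median of 15.68 and a highest of 15.90 at 58 h, and it rose by 0.24 ± 0.05 (adjusted p = 0.000929). Its partner Rplp2 moved between 15.94 and 16.16 around 16.05, with a change of 0.08 ± 0.04 that did not pass (adjusted p = 0.107). Rplp1 was not analysed here because its probe set carries several genes.

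Rpl11 binds 5S rRNA together with Rpl5 and can inhibit Mdm2 when ribosome making is disturbed. It ran from 14.23 at 42 h to 14.52 at 40 h, around a median of 14.36, so that its extremes were 2 h apart. Its change of 0.05 ± 0.05 did not pass (adjusted p = 0.475).

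Around the tunnel through which the new chain leaves the ribosome, 4 genes were measured. Rpl19 ran from 14.79 at 30 h to 15.18 at 42 h around 14.95 and rose by 0.24 ± 0.05 (adjusted p = 0.000897), and Rpl22 rose as given above. Rpl35 had a change of 0.26 ± 0.11 (adjusted p = 0.0586). Rpl39 was read from a dim probe set with a mean of 5.08 and had a change of 0.05 ± 0.09 (adjusted p = 0.684).

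Rps6, the substrate of the S6 kinases downstream of mTOR, had its lowest array at 9.63 at 30 h, its median at 10.12 and its highest at 10.37 at 14 h. The block means were 10.25, 10.14, 9.89, 10.08, 10.17 and 10.13. Its linear change was 0.04 ± 0.12 (adjusted p = 0.804).

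Several ribosomal proteins have a paralog, and whether it can replace them in the ribosome was not examined here. Rpl22 rose, whereas its paralog Rpl22l1, whose abundance in mouse is known to be held down by Rpl22, ran between 14.25 at 42 h and 14.62 at 28 h around 14.52 with a change of 0.00. At 42 h Rpl22 was thus at its highest and Rpl22l1 at its lowest. The array at 42 h stood apart, with 11 ribosomal protein genes at their highest value and 6 at their lowest. Whether Rpl22 held down Rpl22l1 in these cells was not tested. Rpl7 ran from 15.09 to 15.47 around 15.21 and rose by 0.18 ± 0.05 (adjusted p = 0.00531). Rpl7l1 ran from 10.74 to 11.31 around 10.96 and rose by 0.36 ± 0.10 (adjusted p = 0.00807).

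Rps27 sat on a dim probe set with a mean of 5.15 and had a change of 0.21 ± 0.09 (adjusted p = 0.0568), beside -0.05 ± 0.06 for Rps27l (adjusted p = 0.459). Rps4x rose by 0.19 ± 0.06 (adjusted p = 0.0130). Differences within these pairs were not tested. The probe sets of Rps4l, Rpl39l and Rpl3l lay at or within 0.01 of the lowest value of the table, 2.17, on every array, which gives only an upper bound. Rps16, a core protein of the small subunit, had 1 probe set, which lay at that lowest value on every array. A probe set that fails to detect its mRNA would read the same, so it gives no measure of Rps16.

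The annotated transcription starts were read for the TOP motif, through which translation of such mRNAs is controlled. Translation itself was not measured here. Of the 45 genes, 40 matched a RefSeq promoter table of mouse build GRCm38.p6, with 47 starts among them. A TOP start, defined as a C at the start followed by at least 4 further pyrimidines on the gene's strand, was present at 8 of the 47 starts (17%), against 2.51% of 32851 starts of all genes. The 8 starts are shown 5′ to 3′ on the gene's strand, 20 bases before the start and 20 from it on, with the pyrimidine run in capitals.
Rpl14, chr9:120571497-120571536, plus strand: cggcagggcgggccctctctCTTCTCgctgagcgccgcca
Rpl35, chr2:39005112-39005151, minus strand: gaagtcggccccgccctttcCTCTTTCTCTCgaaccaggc
Rpl38, chr11:114668560-114668599, plus strand: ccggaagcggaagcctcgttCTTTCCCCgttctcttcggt
Rplp2, chr7:141447631-141447670, plus strand: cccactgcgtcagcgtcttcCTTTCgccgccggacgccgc
Rps10, chr17:27635225-27635264, minus strand: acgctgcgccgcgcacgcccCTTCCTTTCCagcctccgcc
Rps18, chr17:33955646-33955685, minus strand: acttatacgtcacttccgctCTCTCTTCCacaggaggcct
Rps27, chr3:90213629-90213668, minus strand: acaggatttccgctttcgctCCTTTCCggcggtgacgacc
Rps6, chr4:86857348-86857387, minus strand: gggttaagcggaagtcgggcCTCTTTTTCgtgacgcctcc
The runs are 5 to 11 bases long, the longest in Rpl35. Among the genes of largest rise, Rpl6 and Rps25 have a single annotated start each, shown for contrast with no capitals because neither begins with such a run.
Rpl6, chr5:121204481-121204520, plus strand: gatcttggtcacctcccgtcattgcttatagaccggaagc
Rps25, chr9:44407694-44407733, plus strand: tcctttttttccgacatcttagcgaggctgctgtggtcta
In both, pyrimidine-rich stretches lie before the annotated base rather than at it, and an annotated start may lie some bases away from the one used in these cells.

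Among the 8 genes with a TOP start at the annotated base, 1 rose (Rps10), with a median change of 0.12 and a range of 0.04 to 0.26. Among the 32 genes matched without one, 20 rose, with a median of 0.24. This difference was not tested, and the count of 1 rests on the brightest probe set of each gene. Of the 8, Rps27, Rpl14 and Rps6 were read from probe sets averaging 5.15, 8.16 and 10.11. Dim genes such as Rps25 (8.22) were also among the 32. Of all genes averaging below 13, 2 of 9 rose, against 22 of 36 brighter ones. The part of brightness in the difference was not tested, and a start annotated some bases away would hide a TOP motif. Of the further probe sets, 3 of 4 rose for Rpl35 (by 0.23 to 0.30) and 1 of 2 for Rps18 (by 0.17). In the whole window of 300 bases (250 before the start and 50 after), the ETS motif CCGGAAG was found on either strand in 20 of 47 windows (42.6%), against 8.86% of all windows. The E-box CACGTG, the core sequence bound by the clock factors, was found in 5 (10.6%), against 7.15%. These windows belong to Rpl13a, Rpl14, Rpl19 and Rps19, of which Rpl13a, Rpl19 and Rps19 rose, where 24 of all 45 genes rose. No gene of the 45 was called rhythmic, so the rhythm calls cannot set these genes apart.

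Further probe sets past the filter, not used to represent a gene, were present for 20 of the 45 genes and numbered 45. Of these 45, 24 rose, 0 fell and 0 were rhythmic. For the 13 genes that rose and had such a probe set, 27 of 29 further probe sets had a positive change and 19 rose, with changes from -0.06 to 0.86. The sizes differed widely within a gene. Rpl13a, an RNA-binding protein of the large subunit, rose by 0.16 ± 0.04 on its brightest probe set and by 0.39, 0.86 and 0.53 on the other 3. For Rpl22 another probe set gave 0.39, and its dimmest, with a mean of 11.19, gave -0.06 ± 0.07 (adjusted p = 0.580). Of the 49 probe sets chosen, 34 have a suffix that marks probes shared between transcripts.

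No ribosomal protein gene passed the test for a 24 h rhythm, where 2.77% of all genes did. At an unadjusted p under 0.05 there were 4 of 45 genes (8.89%), against 20.6% of all genes. The fitted amplitude, the height of the cosine above its mean, had a median of 0.04, against 0.08 over all genes, and it exceeded 0.1 for 4 genes. The median amplitude was 0.05 for the large subunit and 0.03 for the small. The first fitted peak lay between 15 and 21 h for 27 genes, between 21 and 27 h for 11 and between 27 and 33 h for 6, and for Rpl39 at 14.7 h. All of these are uncalled fits. The arrays at 40 and 42 h lie 1 cycle after the first of these spans. Without the array at 42 h the median amplitude was 0.033, against 0.043 with it. Peaks were not counted without those arrays or over all genes.

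Rpl27a, a large subunit protein read from a dim probe set with a mean of 7.40, came nearest. It ran from 6.86 at 50 h to 8.44 at 40 h around a median of 7.34. Its amplitude was 0.30 ± 0.08 and the fitted maximum first fell at 15.2 h (adjusted p = 0.0739). The array at 40 h stood clear of the others, of which none exceeded 7.75. Without that array the amplitude was 0.22 (adjusted p = 0.152), and without those at 40 and 42 h it was 0.20 (adjusted p = 0.194). The call was gained without the array at 18 h (adjusted p = 0.0338) or that at 36 h (adjusted p = 0.0487).

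Rps20, of the head of the small subunit, ran from 15.84 to 16.14 around 15.96, with an amplitude of 0.05 ± 0.02 and a fitted maximum first at 28.6 h (adjusted p = 0.167). It was 0.04 without the arrays at 40 and 42 h (adjusted p = 0.344). Rpl37, a small zinc-finger protein of the large subunit, ran from 10.84 at 42 h to 11.96 at 56 h around 11.52. Its amplitude was 0.19 ± 0.06, with a fitted maximum first at 30.0 h (adjusted p = 0.173). It was 0.13 without the array at 42 h (adjusted p = 0.385) and 0.16 without those at 40 and 42 h (adjusted p = 0.242). None of the 3 passed the test, so these hours describe uncalled fits.

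Between 36 to 42 h and 44 to 50 h, 8 of the 45 genes rose and 1 fell, where 20.5% of all genes rose and 12.7% fell. The median difference, later minus earlier, was 0.03, against 0.04 over all genes. Of the 8, 6 were of the large subunit (Rpl12, Rpl7l1, Rpl35, Rpl27, Rplp0 and Rpl13a) and 2 of the small (Rps18 and Rps7). Without the array at 36 h this median was -0.0047, and without that at 40 h it was 0.05. With the arrays centred on their medians 2 of the 45 rose and the median difference was -0.04. Without the arrays at 40 and 42 h 11 rose, including 6 of the 8, and none fell. Shares of all genes were not counted with centring or without those arrays.

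The largest of these rises was in Rpl12, with 7.20, 7.51, 6.99 and 7.28 at 44, 46, 48 and 50 h, against 6.66, 6.03, 6.10 and 6.75 at 36, 38, 40 and 42 h. The blocks did not overlap, and the difference was 0.86 ± 0.20 (1.82-fold; adjusted p = 0.00247). Rpl7l1 had 11.01, 11.31, 11.12 and 11.29 in the later block, against 10.91, 10.83, 10.98 and 10.78 in the earlier. These blocks did not overlap either, and the difference was 0.31 ± 0.07 (adjusted p = 0.00272).

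Rpl35 had 15.50, 15.78, 15.67 and 15.69 at 44 to 50 h, against 15.49, 15.52, 15.45 and 15.08 at 36 to 42 h. The blocks overlapped, the array at 42 h was the lowest of the 24, and the difference was 0.27 ± 0.07 (adjusted p = 0.00659). Without the arrays at 40 and 42 h it was 0.15 (adjusted p = 0.0842). The rise of Rpl27, likewise lowest at 42 h, was 0.23 ± 0.07 (adjusted p = 0.0205), and 0.10 without those arrays (adjusted p = 0.261). The call of Rpl27 was also lost without the array at 42 h, where the difference was 0.13, or that at 46 or 50 h. Without 42 h that of Rpl35 was 0.17. The other 4 rose by 0.13 to 0.15, and that of Rplp0 was lost without the array at 46 h.

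The single fall was in Rpl37a, a zinc-finger protein of the large subunit, with 15.39, 15.34, 15.31 and 15.25 at 44 to 50 h, against 15.33, 15.37, 15.54 and 15.61 at 36 to 42 h. The blocks overlapped and the difference was -0.14 ± 0.05 (adjusted p = 0.0397). It was -0.03 without the arrays at 40 and 42 h (adjusted p = 0.712), and the call was lost without any 1 of the arrays at 40, 42, 46, 48 or 50 h.

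**Figure D5:**
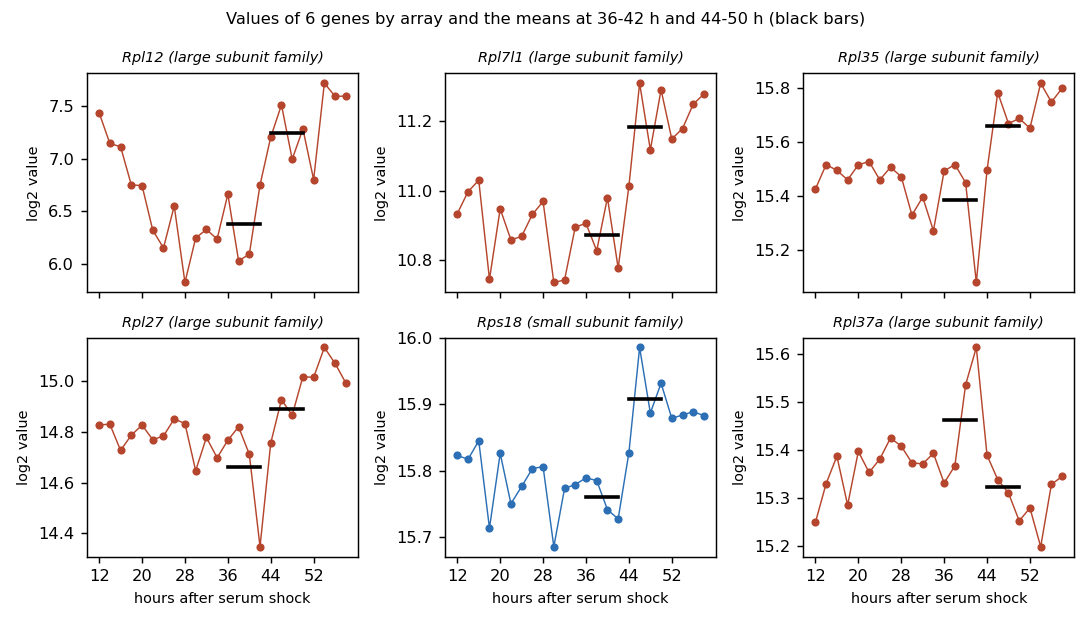
Log2 value on each of the 24 arrays (points joined by lines) against hours after serum shock for 6 ribosomal protein genes called between 44 to 50 h and 36 to 42 h, each with its own vertical scale, and the means of those 2 blocks (black bars). Rpl12 and Rpl7l1 sit higher on all 4 later arrays than on the 4 earlier ones, while the bars of Rpl35, Rpl27 and Rpl37a are moved by the array at 42 h, the lowest or highest of the block.

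Dim probe sets of the same genes could move far more than bright ones over this interval. The brightest probe set of Rps20 had 15.96, 15.99, 15.99 and 16.14 at 44 to 50 h, against 15.96, 15.96, 15.89 and 15.93 at 36 to 42 h. A dimmer probe set of Rps20, with a mean of 7.97, rose by 1.17 (adjusted p = 2.14e-05), and the dimmest, with a mean of 4.92, rose by 0.77 (adjusted p = 0.00168). Both were singled out after their values were seen.

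Between 12 to 18 h and 20 to 26 h, 1 gene rose and 1 fell, where 6.95% of all genes rose and 6.12% fell. Without the arrays at 40 and 42 h 2 rose. Rps19 had 14.44, 14.39, 14.51 and 14.55 at 20 to 26 h, against 14.26, 14.37, 14.34 and 14.20 at 12 to 18 h, with no overlap. The difference was 0.18 ± 0.06 (adjusted p = 0.0347). Rpl12 had 6.74, 6.32, 6.16 and 6.55, against 7.43, 7.14, 7.11 and 6.75, and the difference was -0.67 ± 0.20 (adjusted p = 0.0320). These blocks did not overlap, although the arrays at 20 and 18 h lay within 0.01 of each other. The call of Rps19 was lost without the array at 12, 18, 24 or 26 h, and that of Rpl12 without the array at 12, 14, 16, 22, 24 or 26 h.

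Genes outside the family that work with it were fitted in the same way. Fau, which encodes a small subunit protein fused to a ubiquitin-like protein, ran from 14.13 to 14.71 around 14.39 and rose by 0.34 ± 0.08 (adjusted p = 0.00101). Of 15 mRNAs known for TOP starts that encode no ribosomal protein, 14 were measured. Of these 9 rose, 0 fell and 1 was rhythmic (Nap1l1), where 26.3% of all genes rose, 16.4% fell and 2.77% were rhythmic. The median linear change was 0.32. The 3 with the smallest p were Eef1b2, Eif3f and Pabpc1. Eef1b2, an exchange factor of elongation, rose by 0.31 ± 0.04, Eif3f, an initiation factor subunit, by 0.32 ± 0.05, and Pabpc1, the poly(A)-binding protein, by 0.58 ± 0.09.

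Of 10 listed genes that regulate TOP mRNAs or lie in mTOR signalling, 9 were measured, 3 rose and 1 fell, close to the 26.3% and 16.4% of all genes. Larp1, the TOP-binding repressor, ran from 10.71 to 11.12 around 10.89 and rose by 0.22 ± 0.07 (adjusted p = 0.0121). Larp4, which binds poly(A) tails, rose by 0.43 ± 0.09 (adjusted p = 0.000894), and Eif4ebp1, a repressor of cap-dependent initiation, by 1.05 ± 0.25 (adjusted p = 0.00161). Its relative Eif4ebp2 fell by 0.47 ± 0.19 on the log2 scale (adjusted p = 0.0462).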

How the data were processed

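The authors deposited 1 table of log2 values for 45101 probe sets on 24 arrays, and the submitters' processing notes name GCRMA as the tool. Its version is not given in the sources used here, and the values themselves showed the log2 scale. The floor of the table, 2.17, made up 41.2% of the table. Symbols came from GEO's platform annotation, and all 49 member genes matched RefSeq by Entrez ID. Another 31 symbols of the family sit only on probe sets of several genes and were not analysed here.

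limma 3.58.1 in R 4.3.3 was fitted to the 18526 probe sets kept: once with an intercept, a linear term and the cosine and sine of 24 h, and once with 6 blocks of 8 h (4 arrays each), with a variance prior that follows intensity. Benjamini-Hochberg adjustment ran over all kept probe sets, at 0.05. The error is the scatter of single arrays about the fit, which may be technical, and precision is limited by how many arrays there are. The fits were checked on simulated data with scatter drawn independently for each array. That check does not cover scatter shared by neighbouring arrays or a shift of a whole array. Shares of all genes count 1 probe set per gene, control probe sets left out.

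The members and lists were chosen with earlier results of these data known. Named were the 4 largest called rises and falls, the 3 smallest p for rhythm, the 3 largest called differences each way between blocks, members of the listed functional groups and paralog pairs, and the 3 genes of smallest p among those of the TOP and regulation lists; others are named as examples or singled out after their values were seen.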

Additional observations from a re-analysis of the deposited data

How the results depend on the processing

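The 24 rises kept their call when any 1 array was left out, with 24 to 28 genes called, and 0 genes fell in any of those fits. They numbered 15 with centred arrays and 8 of 19 genes with plain probe sets (IDs without a shared-probe suffix), and 17 to 28 under the other 8 alternatives. Of the 24, 14 were called without the arrays from 44 h on, where 2 genes, Rpl12 and Rpl14, fell. There the fitted changes of Rpl13a and Rpl7l1 were -0.000149 and -0.157, with neither called (adjusted p = 0.999 and 0.370). A rhythm was called for 1 gene, Rpl27a, without 12 to 18 h, with a quadratic trend, and in 0 to 1 genes when 1 array was left out. Rises between 36 to 42 h and 44 to 50 h numbered 2 with centred arrays and 5 with plain probe sets, 10 without 42 and 44 h and 11 without 40 and 42 h, and 6 to 9 with 1 array left out. The fall of Rpl37a was lost (0 called) with quantile normalization, no filter, 1 variance prior, plain probe sets, the mean of probe sets, and without 42 and 44 h or 40 and 42 h, and numbered 0 to 2 with 1 array left out. Early rises numbered 0 with centring, no filter, 1 variance prior or plain probe sets and 2 without 40 and 42 h. Early falls numbered 0 with no filter, 4 with plain probe sets and 3 with the mean of probe sets. Both were 0 to 2 with 1 array left out. Leaving out 40 and 42 h was added after seeing the data. Shares of all genes were not counted under any of the alternatives. The cause of each change was not tested, beyond the fewer genes or arrays that an alternative leaves.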
